A study of Drosophila melanogaster with 12 samples.

Results

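PH binding was compared between mitotic and control cells in 1 ChIP-SEQ peak list of each. The members were the PH peaks on the chromosome arms 2L, 2R, 3L, 3R, 4 and X: 149 peaks of mitotic cells, which was the entire mitotic list, and 4589 of the 4629 peaks of control cells, out of 13522 peaks in the 6 lists of the series. A PH control peak was called retained if it overlapped a mitotic PH peak by 1 bp or more, and lost otherwise. The cells were a stable line made from S2, a Drosophila melanogaster line of embryonic origin, that carries PH with a BLRP biotinylation tag and a FLAG tag together with the biotin ligase BirA, both driven by a metallothionein promoter. Mitotic cells had been treated with colchicine, a microtubule poison that arrests cells at metaphase, at 350 ng/ml (880 nM) for 15 h and were sorted with an antibody to H3S10p, a histone mark of condensed chromosomes. Control cells had received no colchicine and were sorted with an antibody to histone H3. PH was pulled down from both through its biotin with streptavidin beads, without an antibody to PH. Cell cycle state, colchicine and the sorting antibody differed together between the groups and cannot be told apart, and neither can a site held in fewer cells and a site holding less PH per cell.

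PH (Polyhomeotic) is a subunit of Polycomb repressive complex 1, in which it sits beside PSC, PC and dRING, and its SAM domain can polymerize. In flies this complex is recruited to Polycomb response elements (PREs) and keeps developmental genes off, among them the Hox genes of the bithorax complex (BX-C) and the Antennapedia complex (ANT-C) and the segmentation gene engrailed (en). During mitosis chromosomes condense and many DNA-binding proteins leave them, so the comparison asks at which sites PH could still be mapped.

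Each PH list came from 1 library, so no difference between the groups has a replicate check, and every interval below is an exact binomial (Clopper-Pearson) 95% interval that covers counting error only. The lists give a position and a score for each peak, the score being the significance that the peak caller assigned, read here as the negative log10 of its p-value times 10. They hold no read numbers, so the depth behind each peak is unknown here, and a site missing from the mitotic list is one that fell below that list's threshold, not one shown to be free of PH. The thresholds also differed. Control peaks were filtered by false discovery rate and mitotic PH peaks were not. The lowest mitotic score was 50.19 and the lowest control score was 165.56. The study found lower signal to noise in the mitotic PH profile than in that of PSC. It left this profile out of its later analysis because of its quality. By its account the cells sorted as mitotic were at least 95% mitotic. Whether remaining interphase cells added signal to the mitotic PH list was not tested here.

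Mitotic cells had far fewer PH peaks, and nearly all of them lay on sites of control cells. Of 4589 PH control peaks, 146 were retained, which was 3.18% (interval 2.69 to 3.73%), and 4443 were lost. Conversely, 148 of the 149 mitotic peaks overlapped a control peak (99.3%). The counts differ by 2 because 2 control peaks each held 2 mitotic peaks. The only mitotic peak away from control sites, at chr3L:987703-988513, was 811 bp long with a score of 51.75, close to the bottom of the list. It lay 17.3 kb from the nearest PH control peak and had no PSC peak in any list.

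Scores of mitotic peaks were low. They had a median of 80.92 and reached 405.9, and 94 of the 149 were below 100. By comparison, 23 mitotic peaks scored at least as high as the lowest peak of the control list. The mitotic peak with the highest score was at chr2R:16771394-16772834 (405.9), on a control peak that scored 1845.57 and ranked 747 in its list. Next came chr3R:26886490-26887949 (364.05), chr3R:27044799-27046989 (346.83) and chr3L:16580708-16582192 (333.76), each on a control peak with a score of 3100. The last of the 5 was a broad region of 34183 bp at chrX:12614485-12648667, which scored 329.11 and lay in a control peak of 42908 bp. All 5 sites also had a PSC peak in both PSC replicates of mitotic cells.

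Retention followed the control score, but only in part. Retained control peaks had a median control score of 2442 (interquartile range 1525 to 3100), against 719 for lost peaks (378 to 1349). When control peaks were divided into 10 deciles by score, 77 of the 459 peaks in the highest decile were retained, which was 16.8% (13.5 to 20.5%). The share was 6.32% in the second decile (29 peaks), 4.36% in the third (20 peaks) and 1.96% in the fourth (9 peaks). Below the fourth decile no share exceeded 0.871%, and the 6 lowest deciles together held 11 retained peaks. Thus 126 of the 146 retained peaks (86.3%) came from the 3 highest deciles, while even in the highest decile most sites were lost.

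**Figure D1:**
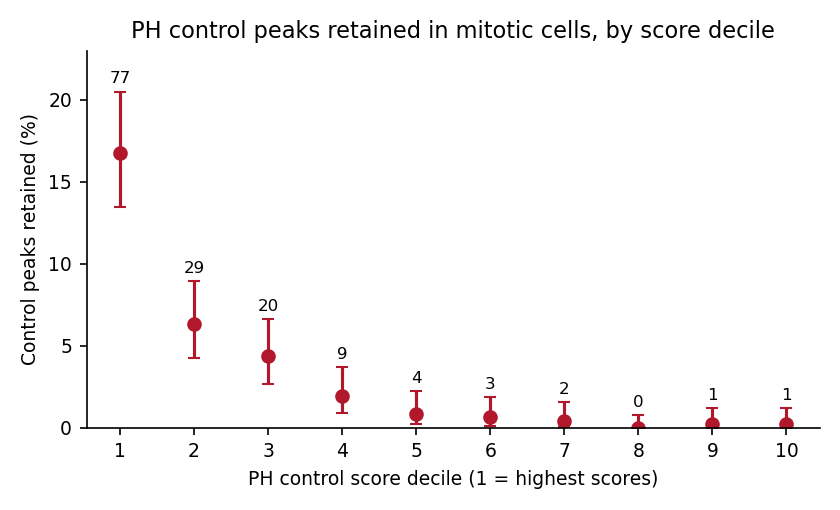
Percentage of PH control peaks retained in mitotic cells (vertical axis) by decile of PH control score (horizontal axis, decile 1 holding the highest scores), with the number of retained peaks above each point and exact binomial 95% intervals as bars. The share was 16.8% in decile 1 and 6.32% in decile 2, and was 0.871% or less from decile 5 downward.

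Most of the highest scoring control peaks were lost. Of the 227 control peaks with a score of 3100 or more, 52 were retained (22.9%). The 4 control peaks with the largest score values were all lost. They were chr2L:18856682-18860303 (score 3215.21), chr3R:19644167-19646954 (3212.93), chr3R:25847213-25849272 (3211.86) and chr2R:8877789-8880141 (3204.45). The peak at rank 5, chr2R:9709124-9713069 (3197.49), was retained, with a mitotic score of 69.32. The peak after it, chr2R:7777424-7782295 (3192.56), was lost. Scores at the top of the control list rank sites only coarsely, since 203 control peaks share the value 3100. The lists do not show whether the 24 peaks above 3100 are stronger sites than these 203. The first ranks therefore need not be the strongest PH sites. Of these 203 peaks 49 were retained (24.1%), and of the 24 peaks above 3100, 3 were retained (12.5%).

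At the other end, a few weak control sites were retained. The lowest was chr3R:15393863-15395344, with a control score of 230.45 and rank 4140, whose mitotic peak scored 160.07, above the mitotic upper quartile of 123.2. It stood 70.8 kb from any other control peak. A second, chr2R:15884410-15885743 (control score 307.9, mitotic score 79.64), was also isolated, at 107.6 kb from its neighbour. The next lowest were chr2R:16449115-16450618 (control 520.4, mitotic 64.2), chr3L:18012208-18013608 (control 556.19, mitotic 111.7) and chrX:7501524-7503743 (control 637.28, mitotic 57.36). A low control score thus went with both low and above-median mitotic scores. Over the 148 overlapping pairs, which share their 2 libraries, the Spearman correlation between control score and mitotic score was 0.221 and the Pearson correlation 0.203. For the 94 pairs with a control score below 3100 the Spearman correlation was 0.125. Median mitotic scores by control decile were 93.5, 81.8, 72.3 and 69.2 in the 4 highest deciles.

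**Figure D2:**
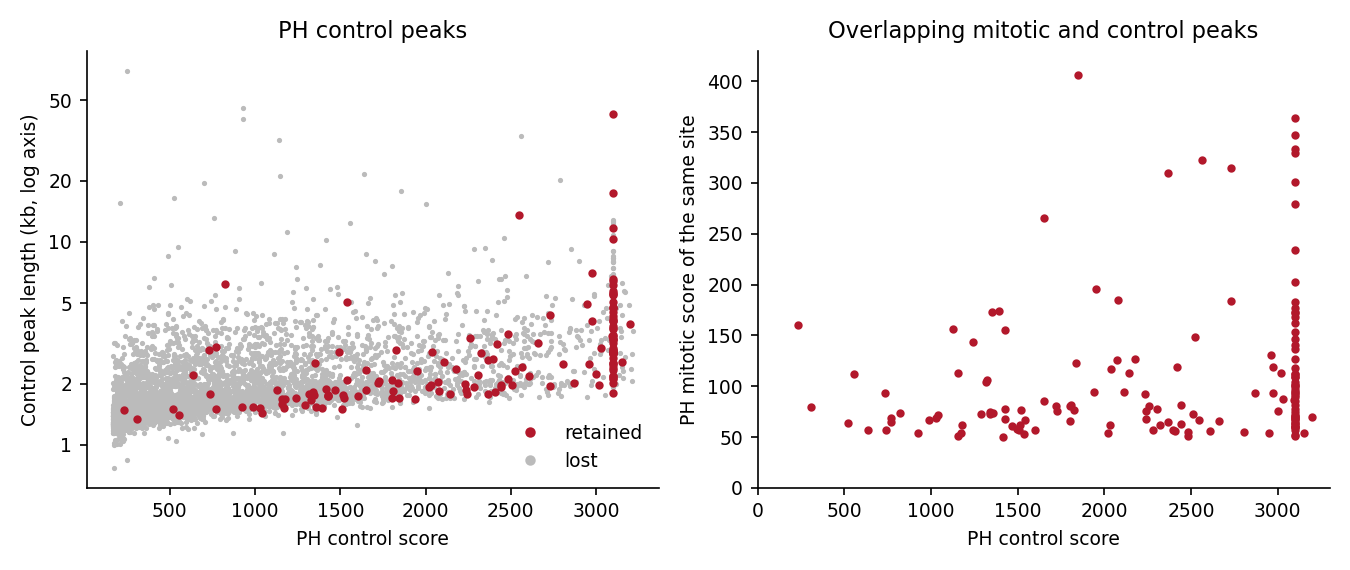
Left, length (kb, log axis) against control score for each PH control peak, with retained peaks in red and lost peaks in grey; right, mitotic score against control score of each overlapping pair. Retained peaks lie mainly at high control scores, with many in the column at 3100. On the right, mitotic scores run from 50.19 to 405.9 (Spearman correlation with control score 0.221 over 148 pairs). The pair with the lowest control score, 230.45, has a mitotic score of 160.07, and the highest mitotic scores lie at higher control scores.

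Mitotic peaks were short and lay inside the control peaks. Their median length was 1225 bp (interquartile range 1061 to 1441 bp), and 144 of the 148 that overlapped a control peak were contained in it entirely. The mitotic peak covered a median 0.528 of the length of its control peak, and it was the longer of the pair at 1 site. Midpoints of the pair were a median of 169 bp apart, and at 81 sites (54.7%) within 200 bp. Among the 143 pairs whose control peak was 10 kb or shorter, the largest distance between midpoints was 1884 bp. Length of a peak depends on where its signal meets the threshold. By the study's account both lists were called with the same parameters, and the control list was filtered by false discovery rate afterwards. Mitotic scores were lower, and how this bears on the lengths was not tested.

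Long control peaks were retained more often, but not once score was taken into account. Retained control peaks had a median length of 2339 bp, against 1780 bp for lost peaks, a difference of 559 bp. Over all control peaks score and length were linked, with a Spearman correlation of 0.642 over 4589 peaks of 1 library. Within score deciles, the median length of retained minus lost peaks was on average −89.3 bp, and retained peaks were shorter in 6 of the 9 deciles that held a retained peak. In the highest decile the median lengths were 3156 bp for retained and 3174 bp for lost peaks, and in the second 2017 bp and 2275 bp. By length alone, 35 of the retained peaks fell in the longest length decile of control peaks, where the score deciles gave 41.2. The number given by the score deciles is the sum, over a group's peaks, of the retained share of each peak's score decile. No share or length here was tested, since the peaks come from 1 pair of libraries.

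Very wide PH regions were few. Of 31 control peaks longer than 10 kb, 5 were retained (16.1%, 5.45 to 33.7%), where the score deciles gave 3.06. All 5 were among the 16 wide peaks of the highest score decile (31.2%, 11.0 to 58.7%), against 72 of the 443 other peaks of that decile (16.3%), a share inside that interval. Of the 15 wide peaks in lower deciles, 0 were retained, which allows up to 21.8%. The 5 retained wide peaks were chr2R:11814819-11825191, chr3R:4872606-4884257, chr3R:26621807-26639304 and the neighbours chrX:12605761-12648668 and chrX:12648870-12662498. In the widest of them, on X, the mitotic peak spanned 34183 bp, whereas in the 11652 bp peak on 3R it was a point of 923 bp. The longest lost peak, chr3L:3392549-3462465, was 69917 bp long with a control score of 252.14.

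Most retained sites had a lost site as their nearest neighbour, and so did most lost sites. The nearest PH control peak was lost for 140 of the 146 retained peaks (95.9%) and for 4293 of the 4443 lost peaks (96.6%). Here 4 pairs of retained peaks were next to each other in the control list. The closest pair was the 2 wide regions on X, 201 bp apart. Another pair on X, chrX:7497916-7500787 and chrX:7501524-7503743, was 736 bp apart. The pair on 2L, chr2L:12001845-12008434 and chr2L:12009396-12013155, was 961 bp apart, and the pair on 2R, chr2R:11209065-11211302 and chr2R:11226309-11228442, 15006 bp apart. The median distance between successive retained peaks was 521 kb, with a range of 0.201 to 3799 kb.

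Among peaks with a neighbour within 10 kb, that neighbour was lost for 107 of 113 retained peaks (94.7%) and for 3241 of 3360 lost peaks (96.5%). Beside retained peaks the lost neighbour had a lower control score in 96 cases, an equal score in 2 and a higher score in 9. A higher score than the neighbour was common for any high-scoring site. In the highest score decile, 61 of 66 retained peaks (92.4%) and 248 of 271 lost peaks (91.5%) outscored such a neighbour. In the second decile the counts were 18 of 20 (90.0%) for retained and 265 of 324 (81.8%) for lost peaks. Isolated and crowded sites had similar shares. Of 1116 isolated control peaks, with more than 10 kb to the nearest other, 33 were retained (2.96%, 2.04 to 4.13%), against 113 of 3473 crowded ones (3.25%, 2.69 to 3.90%). At finer steps the share was 4.18% for peaks within 1 kb of another, 2.52% at 10 to 20 kb and 4.10% beyond 50 kb. The sign of the difference between isolated and crowded peaks depends on the settings: it was −0.297 percentage points as defined, and 0.144 without the X chromosome, an alternative chosen after seeing the data.

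**Figure D3:**
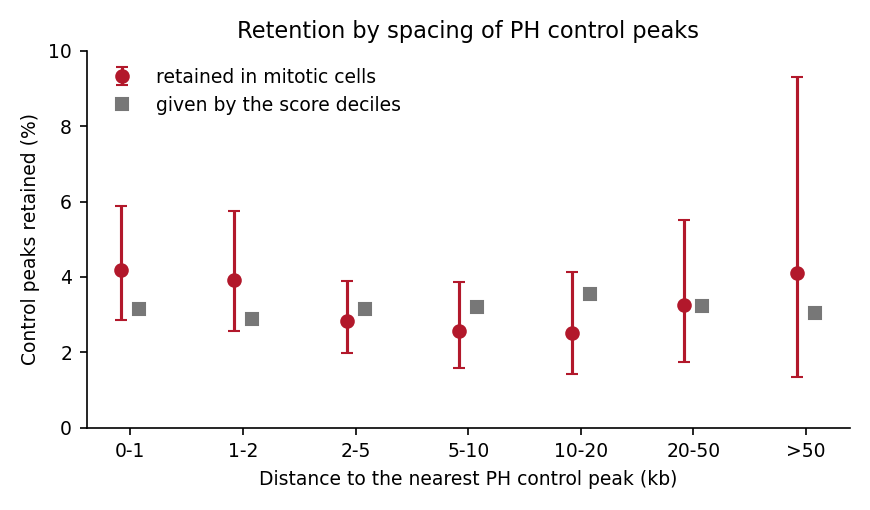
Percentage of PH control peaks retained (vertical axis) by distance to the nearest other PH control peak in kb (horizontal axis). Red points with exact binomial 95% intervals are the retained shares, from 2.52 to 4.18%, and grey squares are the shares that the score deciles of the same peaks give; every square lies inside the interval beside it.

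Retention was even across the 4 large autosomal arms. On 2L 28 of 844 control peaks were retained (3.32%), on 2R 29 of 957 (3.03%), on 3L 28 of 954 (2.94%) and on 3R 39 of 1125 (3.47%). The score deciles gave 29.0, 32.0, 29.4 and 39.7 for these arms, so that the ratio of retained to given lay between 0.907 and 0.981 on each. Against the numbers given by the score deciles, chromosome 4 lay lower and the X higher. The unmatched share on the X was like that of these 4 arms.

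Chromosome 4, the small and largely heterochromatic autosome, kept no PH peak. It held 51 control peaks with a median score of 1737, higher than on any other arm, and 18 of them were in the highest score decile. The score deciles gave 4.00 retained peaks. A count of 0 of 51 allows a retained share of up to 6.98%, beside 3.18% of all peaks and the 7.85% that the score deciles gave. This bound counts peaks of 1 library as independent, so it is not a test of chromosome 4. In the highest decile 0 of 18 were retained (up to 18.5%), against 16.8% of all peaks of that decile. Over the 33 peaks of chromosome 4 in deciles 1 to 3, 0 retained peaks allow up to 10.6%. The control list also had 40 peaks on heterochromatic scaffolds outside the arms, where the mitotic list had no peak, so 0 were retained. Of the 62 peak numbers missing from the mitotic list, only 3 fell within the arms. Mitotic peaks outside the arms may therefore have been filtered out, and the 0 of 40 cannot be read as loss.

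On the X, 22 of 658 control peaks were retained (3.34%, 2.11 to 5.02%), a share like that of the autosomes. X control peaks, however, had lower scores, with a median of 534, and their score deciles gave 11.9 retained peaks, or 1.81% of them, for a ratio of 1.85. Within the highest decile, 7 of 31 X peaks were retained (22.6%, 9.59 to 41.1%), against 70 of 410 on 2L, 2R, 3L and 3R (17.1%, 13.6 to 21.1%). In decile 2 the counts were 4 of 26 on the X (15.4%, 4.36 to 34.9%) and 25 of 423 on those arms (5.91%). In decile 3 they were 5 of 47 (10.6%, 3.55 to 23.1%) and 15 of 407 (3.69%). In deciles 4 to 10 they were 6 of 554 (1.08%, 0.398 to 2.34%) and 14 of 2640 (0.530%). Each of these X intervals included the share on those arms. For peaks at a score of 3100 or more the order was reversed, with 3 of 14 (21.4%) on the X and 49 of 203 (24.1%) on the other arms. The ratio rests on matching by control score, and without matching it was 1.05. Whether a given score stands for the same amount of PH on the X and on the autosomes was not tested. A larger share of the caller's control peak numbers was missing on the X, 276 of 934. On 2L it was 202 of 1046, on 2R 199 of 1156, on 3L 239 of 1193 and on 3R 267 of 1392. How this bears on the ratio was not tested. Mitotic scores on the X were at the low end, with a median of 72.44, against 75.31 on 3L, 76.08 on 2R, 87.84 on 3R and 111.91 on 2L.

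**Figure D4:**
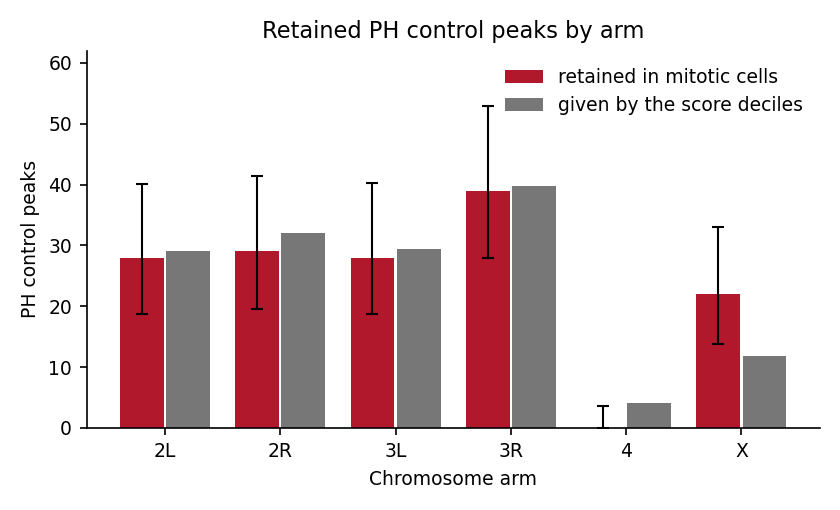
Number of PH control peaks on each chromosome arm that were retained in mitotic cells (red bars, with exact binomial 95% intervals) beside the number given by their score deciles (grey bars). The bars are nearly equal on 2L, 2R, 3L and 3R, while chromosome 4 had 0 against 4.00 and the X had 22 against 11.9.

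Along the arms, 24 of 27 windows of 5 Mbp held at least 1 retained peak. The most, 14 of 218 control peaks, lay in the window 15000001 to 20000000 of 2R, where the score deciles gave 6.86. It was picked for its count and holds the example region of 2R described below, with 4 retained peaks. By share the highest window was 25000001 to 30000000 of 3R, with 7 of 96 (7.29%, given 3.72). The other windows of 2R held fewer than 14. From 1 to 5000000 on 2R 2 of 196 peaks were retained (given 6.87), and from 5000001 to 10000000 4 of 251 (given 9.10). On 3R, 13 of 221 were retained from 10000001 to 15000000 (given 9.03). This window contains the BX-C, which contributed none of them.

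No PH control peak in either Hox cluster was retained. The BX-C, which holds Ubx, abd-A and Abd-B, kept 0 of its 16 control peaks (3R, 12481043 to 12796779), which allows a share of up to 20.6%. These peaks ranged in control score from 195.51 to 3100, with a median of 706. The lowest was chr3R:12573775-12575131 (195.51) and the highest were chr3R:12588859-12590786 and chr3R:12794492-12796779 (3100 each). Of the 16, 3 (18.8%) were in the highest decile, which held 10.0% of all control peaks, and the score deciles gave 0.712 retained peaks. With the flanks of the complex included, 0 of 45 peaks between 12199397 and 12914612 were retained (up to 7.87%, given 1.31). The part of the ANT-C from Dfd to Antp had 0 of 9 between 2616526 and 2827555 on 3R. Their scores ran from 263.18 at chr3R:2644504-2645805 to 3159.63 at chr3R:2737314-2739637, which ranked 10 by score value. With its surroundings the ANT-C had 0 of 25 between 2530995 and 2977805 (up to 13.7%, given 1.20).

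The 2 Hox windows together had 0 of 25 retained peaks, which allows up to 13.7%, and the score deciles gave 1.19. At this number of sites a share equal to the 3.18% of all control peaks could not be told from none. At en, the view of the study held 1 PH control peak, chr2R:7414846-7418006. It scored 3100 and was lost.

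At the neighbouring genes Psc and Su(z)2, the gene of the PRC1 subunit PSC and its paralog, 1 of the 18 control peaks was retained (2R, 8755942 to 8931744), where the score deciles gave 0.972. The retained peak, chr2R:8929192-8931744, had a control score of 3151.34, and its mitotic peak at chr2R:8930514-8931588 scored 54.08, near the bottom of the mitotic list. The control peak with the largest score value of this locus, chr2R:8877789-8880141 (3204.45), was lost, as was the one with the smallest, chr2R:8820859-8822289 (253.22). A mitotic PH peak was therefore present at the last control peak of this window and at none of its other 17 peaks. The window was read from the study's genome view, so its end need not be an end of the locus.

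A region of 2R that the study displays as an example of PSC peaks kept in mitosis held 4 retained PH peaks among 14 between 16438865 and 16795012, where the score deciles gave 0.508. It was chosen by the study for its retained peaks, so the count is a description. The retained peaks were chr2R:16449115-16450618 (control 520.4, mitotic 64.2), chr2R:16510197-16511697 (control 771.82, mitotic 64.95), chr2R:16553881-16556413 (control 3100, mitotic 101.33) and chr2R:16771237-16772940 (control 1845.57), which carried the highest mitotic score of the genome, 405.9. Of the 4, 1 was in the highest control decile. Lost peaks with higher control scores than the first and second of these lay in between, such as chr2R:16504843-16506884 (1472.55).

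**Figure D5:**
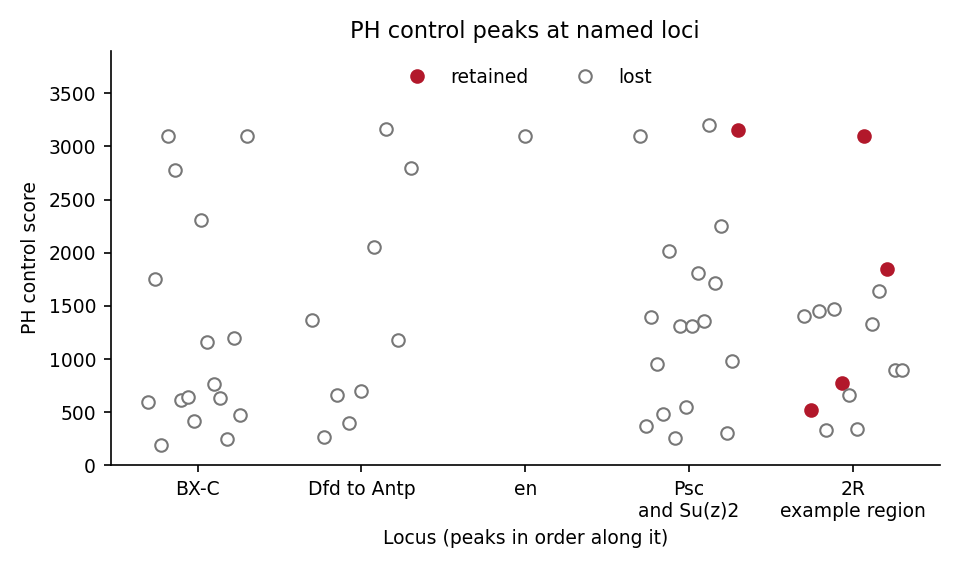
PH control score (vertical axis) of each PH control peak at 5 loci, in order along each locus, with retained peaks filled red and lost peaks open. None of the 16 peaks in the BX-C, the 9 from Dfd to Antp or the 1 at en was retained, against 1 of 18 at Psc and Su(z)2 and 4 of 14 in the example region of 2R.

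As a final check the mitotic PH peaks were set beside the PSC lists, which came from untagged S2 cells and an antibody to PSC, with 2 replicates per condition. Of the 149 mitotic PH peaks, 138 overlapped a mitotic PSC peak in replicate 1 (92.6%, 87.2 to 96.3%) and 40 in replicate 2 (26.8%), whose list had 60 peaks against 578. All 40 were also among the 138. Of the retained PH control peaks, 94.5% had a mitotic PSC peak in replicate 1, against 9.36% of the lost ones and 12.1% of all PH control peaks. In replicate 2 the shares were 27.4% of retained, 0.293% of lost and 1.15% of all.

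Thus 416 PH control peaks that were lost in the PH lists had a mitotic PSC peak in replicate 1. Their control PH scores, with a median of 1930 (interquartile range 1317 to 2735), lay between the 2442 of retained peaks and the 649 of the 4027 peaks with neither. Such sites were 4 of the 45 peaks of the BX-C with its surroundings, such as chr3R:12903651-12907556 (control PH score 3100). They were 5 of the 25 of the ANT-C with its surroundings, such as chr3R:2899343-2902610 (2903.08). Within the BX-C they were 0 of 16 and between Dfd and Antp 0 of 9. At Psc and Su(z)2, 4 of the 18 PH control peaks had a mitotic PSC peak in replicate 1. These were the retained peak and lost ones such as chr2R:8755942-8758571 (control PH score 3100). The share with such a PSC peak was 9.36% over all lost peaks and 12.1% over all PH control peaks. The X held 14.8% of mitotic PH peaks and 14.3% of PH control peaks. It held 11.0% of mitotic PSC peaks on the arms in replicate 1 and 26.4% in replicate 2. Chromosome 4 held 0 of 566 (up to 0.650%) and 0 of 53 (up to 6.72%) mitotic PSC peaks, beside 1.11% of PH control peaks.

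The 11 mitotic PH peaks with no mitotic PSC peak were spread over 2L, 2R, 3L, 3R and X. Their mitotic scores ran from 50.78 at chr2L:10231474-10232471 to 125.29 at chr2L:4970257-4972060. They included the peak on 3L without a PH control peak, the isolated weak control site chr2R:15884410-15885743, and both members of the close pair on X at chrX:7497916-7500787 and chrX:7501524-7503743. Apart from the peak on 3L, each of them had a PSC peak of control cells in replicate 1.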

How the data were processed

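The deposited lists held, for each PH peak, its coordinates, its number in the caller's output and the authors' score. The authors aligned reads to dm3 with Bowtie (version 1.1.2 in the submitters' processing notes, which list MACS with version 1.0.1), kept uniquely mapping reads and called peaks per sample with MACS. They filtered the lists by false discovery rate, except that of mitotic PH, and dropped unplaced chromosomes. Peak numbers ran to 211 in the mitotic and 5835 in the control list, of which 62 and 1206 were missing. Input samples were not analysed here.

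Overlaps, exact intervals and score deciles were computed in Python 3.11.15 (scipy 1.17.1, pandas 2.3.3, numpy 2.4.6), tested on simulated data and checked with bedtools 2.31.1 (same count in 30 of 30 pairs of lists). Coordinates are 1-based, in dm3. No test was run across conditions. Peaks named were the 5 highest mitotic and control peaks, the 5 highest lost and lowest retained control peaks, the longest of each kind, mitotic peaks without a control peak, adjacent retained peaks and the extremes and retained peaks of the loci. Retained wide peaks, mitotic peaks without PSC and the examples in the flanks of the Hox clusters and in the 2R region were named after their values were seen. Members, loci and settings were chosen with earlier results of these data known. Locus windows were read from the study's genome views to about 10 kb, those of the BX-C and ANT-C with the help of recalled gene positions, and no annotation of dm3 was used. Alternatives were score cutoffs on mitotic peaks, overlap rules, bins, spacing and window sizes, and parts of the control list left out.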

Additional observations from a re-analysis of the deposited data

How the results depend on the processing

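Of 71 alternative values, 55 kept their direction and their size within the counting interval, 13 moved and 3 changed sign. Requiring 50% overlap or a midpoint inside the control peak gave 146 retained peaks and counting peaks with edges up to 500 bp apart gave 147. Fewer mitotic peaks gave fewer retained ones: 54 at a mitotic score of 100 or more, 73 with the upper 50% of mitotic peaks and 22 with those at the lowest control score or higher. In these sets 63.0%, 63.0% and 68.2% of retained peaks fell in the highest control decile, against 52.7% with all. With the last set the largest difference of a window between its share of retained and of control peaks was 13.5 percentage points, against 4.84. The length of retained minus lost peaks at matched score was −49.3 bp at a mitotic score of 100 or more and −191 bp with 20 bins. It was −185 bp without control scores of 3100 or more and −176 bp without control peaks over 10 kb, both chosen after seeing the data. Without score matching it was 559 bp, the opposite sign, and the X ratio was 1.05. Isolated minus crowded was 0.942 percentage points with crowding set at 50 kb and 0.144 without the X (chosen after seeing the data), both opposite in sign. The share of mitotic PH peaks with a PSC mitotic peak was 26.8 to 92.6% when 1 PSC replicate was left out. The counts of 0 on chromosome 4 and in the Hox windows are among the 55, but most alternatives could not change them. Chromosome 4 had 0 mitotic peaks, so its count was 0 under any setting. In the Hox windows only counting edges up to 500 bp apart or widening the windows could add a retained peak. Neither did so (0 of 42 with windows widened by 50 kb). Causes were not tested, apart from the smaller lists that the score cutoffs make. No paired analysis was possible because PH has 1 sample per condition. Without read numbers, weak mitotic binding below the threshold cannot be separated from none.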
